A study of Arabidopsis thaliana with 10 samples.

Results

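The 123 genes described here had a local maximum of transcript level in the middle of the sampled Arabidopsis thaliana inflorescence stem. They were chosen from 18858 measured genes, which reached 1 FPKM in 1 or more of the 4 RNA libraries. FPKM counts sequenced fragments per kilobase of transcript length relative to the depth of the library. A gene was taken when its log2(FPKM + 1) in wild-type segment II was higher by at least 1, which is 2-fold on that scale, than in segment I and also than in segment III. This choice took 0.652% of the measured genes. Because the wild-type values chose the genes, their peak is a description and not a finding.

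The library labelled atx1 II came from segment II of plants whose genotype label is atx1. The sources used here do not name the allele, nor how many plants were pooled. Libraries WT I, WT II and WT III came from the same numbered segments of wild-type Col plants. Stems had grown to 20 cm, and the segments lay 0 to 3 cm, 5 to 7 cm and 10 to 12 cm from the top. All plants were kept in 16 h of light and 8 h of darkness at 22 °C. The study asked how transcripts and the histone mark H3K4me3 (trimethylation of lysine 4 of histone H3) differ along the stem and in atx1, and the chromatin samples were not analysed here. Each group is a single library without replicates, so differences are given with no test, p-value or error and describe these 4 libraries.

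An elongating stem passes from growth near the top to wall thickening lower down, where xylem vessels and interfascicular fibres lay down cellulose, xylan and lignin. Its outer cell layers are green and fix carbon, and its phloem moves sucrose and amino acids between leaves and the growing tip. Jasmonate, a hormone of wounding and defence, is made from plastid fatty acids, acts as a conjugate with isoleucine, and is removed when that conjugate is split or oxidised.

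Depth, read from the steps of 1 fragment in the values of short genes, was about 18900000 fragments in the library labelled atx1 II and 19200000 to 20800000 fragments in the 3 wild-type libraries. ATX1 (AT2G31650), which encodes an H3K4 methyltransferase, was at 21.8 FPKM in the library labelled atx1 II, against 4.02 FPKM in WT I, 6.09 FPKM in WT II and 3.54 FPKM in WT III. The gene named in the label was thus not lower in that library, and every direction drawn from it below rests on its label. Stem markers were present, since the 5 fibre and xylem markers summed to 330 FPKM in the library labelled atx1 II, against 222 FPKM in WT I, 1099 FPKM in WT II and 1010 FPKM in WT III. The markers went different ways between the library labelled atx1 II and WT I. XCP1 was lower (14.6 against 82.8 FPKM) and XCP2 similar (91.9 against 95.8 FPKM). IRX3 was higher (136 against 23.5 FPKM), as were SND1 and NST1. In whole segments, fewer cells of a type and less RNA per cell cannot be told apart.

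The 123 genes spanned a wide range of levels. In WT II 14 were at 100 FPKM or more, 50 lay between 10 and 100 FPKM, 23 between 5 and 10 FPKM, and 36 under 5 FPKM. Their median level was 10.27 FPKM in the library labelled atx1 II, against 1.44 FPKM in WT I, 10.8 FPKM in WT II and 3.57 FPKM in WT III. For 11 genes WT II was the only library that reached 1 FPKM. Between the 2 low sides of the peak, segment III was the higher one for 78 genes and segment I for 40, with 5 equal. By the 2-fold measure, 21 genes were at least 2-fold higher in WT III than in WT I and 1 gene was at least 2-fold lower. For WT III against WT I, the shares of all measured genes were not counted. Nothing is therefore read from 78 against 40 or from 21 against 1. The median of the smaller of the 2 differences was 1.25 on the log2 scale, and in 12 genes it was at least 2. Most of the genes thus lay close to the limit of the rule.

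**Figure D1:**
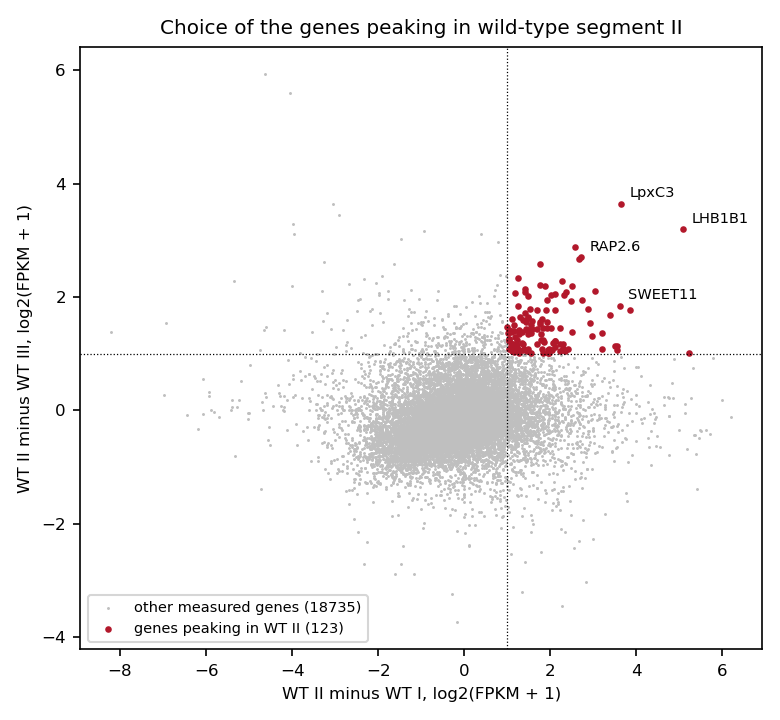
Each point is 1 of the 18858 measured genes, placed by the difference between WT II and WT I (x axis) and between WT II and WT III (y axis) in log2(FPKM + 1). The 123 genes chosen fill the corner above 1 on both axes (dotted lines), crowded near the lines, and LpxC3 and LHB1B1 have the largest smaller difference of the 2.

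Just inside the limit, the smaller difference was 1.01 for AT4G37483, 1.01 for NAP and 1.0 for sks13. Just outside were AT5G42830 at 0.985, AT1G66690 at 0.98 and AT5G26700 at 0.979.

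Lists of stem and stress genes were set beside the 123 genes. Among all measured genes WT II was at least 2-fold above WT I for 9.88% and below it for 16.1%, and above WT III for 2.35% and below it for 2.85%. The rule took 0.652% of all measured genes, so at that share short lists would hold few or none, and nothing is read from a count of 0. Of 85 measured genes on 3 lists (xylan synthesis, secondary wall cellulose and lignin, and the NAC and MYB regulators of wall thickening), 65 exceeded WT I by at least 2-fold in WT II, 2 exceeded WT III by as much there, a share near that of all measured genes, and 0 met both conditions. Those 2 were GXM2, a xylan methyltransferase gene (33.0 FPKM in WT I, 46.3 FPKM in WT II and 18.3 FPKM in WT III), and the peroxidase gene PRX66 (47.5 FPKM in WT I, 8.60 FPKM in WT II and 0.94 FPKM in WT III). The median difference of the 85 genes was 2.41 between WT II and WT I and -0.10 between WT II and WT III, against -0.13 and -0.19 for all measured genes. The lists for abscisic acid and cold, the circadian clock, cuticular wax, heat shock, and phosphate, sulfur and iron status also held 0 of the 123 genes.

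Among transporter genes, 3 of the SWEET family peaked. SWEET11 (AT3G48740) and SWEET12 (AT5G23660) encode plasma membrane sucrose exporters that load the phloem. SWEET11 was at 611 FPKM in the library labelled atx1 II, against 16.4 FPKM in WT I, 214 FPKM in WT II and 58.7 FPKM in WT III. SWEET12 was at 467 FPKM in the library labelled atx1 II, against 32.6 FPKM in WT I, 244 FPKM in WT II and 69.9 FPKM in WT III. Both were thus higher in the 2 libraries from segment II than in those from segments I and III, and SWEET11 was 1.51 higher on the log2 scale in the library labelled atx1 II than in WT II. SWEET16 (AT3G16690), a sugar transporter of the vacuole membrane, had the same order at a low level, with 6.88 FPKM in the library labelled atx1 II, against 0.92 FPKM in WT I, 3.66 FPKM in WT II and 1.29 FPKM in WT III.

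These 3 were the only members of the 17 measured genes on the list of sugar transporters. The phloem sucrose loader SUC2 did not peak in segment II, being at 148 FPKM in the library labelled atx1 II, against 71.4 FPKM in WT I, 163 FPKM in WT II and 206 FPKM in WT III. Over the 17 genes, WT II was at least 2-fold above WT I for 5 and below it for 1. It was above WT III for 3 and below it for 2. Among all measured genes the shares were 9.88%, 16.1%, 2.35% and 2.85% in the same order. By the rule, the 3 members are the 3 above WT III and 3 of the 5 above WT I, so nothing is read from these counts. Phloem marker transcripts (SUC2, APL, SEOR1 and PP2-A1) summed to 521 FPKM in the library labelled atx1 II, against 192 FPKM in WT I, 488 FPKM in WT II and 485 FPKM in WT III. Between WT II and WT III the markers went different ways, with SEOR1 at 79.2 FPKM in WT II and 48.3 FPKM in WT III and SUC2 lower in WT II than in WT III, and the part of phloem content in the SWEET levels was not tested. The amino acid carrier genes had smaller values, namely UMAMIT28 (AT1G01070), an amino acid exporter, at 17.9 FPKM in the library labelled atx1 II, against 1.62, 11.3 and 4.93 FPKM in WT I, II and III, and the proline transporter gene ProT3 (AT2G36590), at 0.91 FPKM against 0.04, 2.52 and 0.19 FPKM.

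Nitrate and sulfate genes formed a second group. NIA1 (AT1G77760) encodes 1 of the 2 nitrate reductases, which turn nitrate into nitrite. It was at 358 FPKM in the library labelled atx1 II, against 16.3 FPKM in WT I, 47.4 FPKM in WT II and 11.1 FPKM in WT III. The other reductase gene, NIA2, was at 1735 FPKM in the library labelled atx1 II. In WT I, II and III it was at 158, 279 and 338 FPKM. It was not a member, since its wild-type levels rose from segment I to segment III. AST91 (AT1G23090), a sulfate transporter gene also called SULTR3;3, was at 153 FPKM in the library labelled atx1 II, against 7.36 FPKM in WT I, 32.8 FPKM in WT II and 11.3 FPKM in WT III. The nitrate transporter gene NRT2.6 went the other way in the library labelled atx1 II, with 0.48 FPKM there against 1.06, 3.38 and 1.0 FPKM in WT I, II and III. Of 5 measured genes on a list of nitrate uptake and reduction drawn up after the values were seen, NIA1 and NRT2.6 were the 2 members.

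Of the 59 members with a name or synonym in the annotation used here, 8 were grouped under jasmonate synthesis, breakdown or response. Among these 8, those of the breakdown branch had higher levels in WT II than those of synthesis. This order holds for these 8 only. Synthesis genes outside the 123 included OPCL1 at 206 FPKM, AOC3 at 102 FPKM, OPR3 at 65.2 FPKM and AOC2 at 8.01 FPKM in WT II. IAR3 (AT1G51760) and ILL6 (AT1G44350) encode hydrolases that split jasmonoyl-isoleucine and auxin conjugates. IAR3 was at 123 FPKM in the library labelled atx1 II, against 18.6 FPKM in WT I, 83.5 FPKM in WT II and 38.0 FPKM in WT III. ILL6 was at 31.9 FPKM in the library labelled atx1 II, against 11.0 FPKM in WT I, 26.7 FPKM in WT II and 12.3 FPKM in WT III. CYP94B1 (AT5G63450) and CYP94B3 (AT3G48520) encode cytochromes P450 that oxidise jasmonoyl-isoleucine, the active hormone. CYP94B1 was at 4.33 FPKM in the library labelled atx1 II, against 0.90 FPKM in WT I, 18.7 FPKM in WT II and 5.17 FPKM in WT III, and CYP94B3 was at 6.73 FPKM against 1.3, 9.01 and 3.31 FPKM. The peak of CYP94B1 was thus missing from the library labelled atx1 II, which lay below WT III, while IAR3, ILL6 and CYP94B3 lay above both WT I and WT III there.

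On the synthesis side stood LOX2 (AT3G45140), a plastid lipoxygenase gene, and AOC1 (AT3G25760), an allene oxide cyclase gene. LOX2 was at 12.9 FPKM in the library labelled atx1 II, against 1.0 FPKM in WT I, 3.78 FPKM in WT II and 0.33 FPKM in WT III. AOC1 was at 17.1 FPKM in the library labelled atx1 II, against 0.14 FPKM in WT I, 2.17 FPKM in WT II and 0.25 FPKM in WT III. Both were low in the wild type and highest in the library labelled atx1 II. AOC2, which lies beside AOC1, was at 77.3 FPKM in the library labelled atx1 II, against 1.23, 8.01 and 3.75 FPKM in WT I, II and III, and missed the rule. Near-identical copies of this family can share reads, so their levels are uncertain. The response genes were TAT3 (AT2G24850), a jasmonate-induced tyrosine aminotransferase gene, at 5.65 FPKM in the library labelled atx1 II against 1.09, 10.8 and 2.08 FPKM in WT I, II and III, and RGLG3 (AT5G63970), a ubiquitin ligase gene of jasmonate signalling, at 24.7 FPKM against 6.31, 24.8 and 9.80 FPKM.

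Other genes of the pathway had other patterns. On a list of 18 measured genes of jasmonate synthesis and turnover, drawn up after the values were seen, 6 were members. WT II was at least 2-fold above WT I for 7 of the 18, namely the 6 members and AOC2, and below it for 1. It was above WT III for the 6 members and below it for 0. Among all measured genes these shares were 9.88%, 16.1%, 2.35% and 2.85%. The rule itself places the members above both WT I and WT III, so nothing is read from these counts. The lipoxygenase genes LOX3 (117 FPKM in WT I, 76.1 FPKM in WT II and 94.95 FPKM in WT III) and LOX4 (95.7 FPKM in WT I, 75.7 FPKM in WT II and 106 FPKM in WT III) were at their lowest wild-type level in segment II. Of 9 JAZ repressor genes, which are jasmonate response genes themselves, 0 were members, with a median difference of 0.27 between WT II and each of the other 2 wild-type libraries. In the list of salicylate and jasmonate defence genes LOX2 was the 1 member of 10 measured genes.

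Photosynthesis gave few but abundant members. LHB1B1 (AT2G34430), also called LHCB1.4, encodes an antenna protein of photosystem II and had the highest WT II level of the 123 genes. It was at 80.9 FPKM in the library labelled atx1 II, against 21.0 FPKM in WT I, 749 FPKM in WT II and 80.7 FPKM in WT III. WT II therefore stood apart from the other 3 libraries for this gene. Its near-identical relatives can share reads with it, so the level is uncertain. Among them LHCB1.1 was at 815 FPKM in the library labelled atx1 II, against 92.4, 24.95 and 12.95 FPKM in WT I, II and III, and LHB1B2 was at 2563 FPKM against 623, 1850 and 996 FPKM.

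LHB1B1 was the 1 member among 25 light harvesting and Rubisco genes, for which WT II was at least 2-fold above WT I in 4 and below it in 4, and above WT III in 10 and below it in 0. Of all measured genes, 9.88% and 16.1% were above and below WT I, and 2.35% and 2.85% were above and below WT III. By the rule, LHB1B1 is 1 of the 4 above WT I and 1 of the 10 above WT III. Markers of green tissue (RBCS1A, LHCB3 and CA1) summed to 6534 FPKM in the library labelled atx1 II. The sums were 15349 FPKM in WT I, 16069 FPKM in WT II and 6230 FPKM in WT III. RBCS1A was lower in the library labelled atx1 II than in WT II (5484 against 12468 FPKM), as was CA1 (627 against 3339 FPKM). LHCB3 was higher there (423 against 262 FPKM). The part of green tissue in the levels of the members was not tested. CAT2 (AT4G35090) encodes a peroxisomal catalase that removes the hydrogen peroxide of photorespiration. It was at 419 FPKM in the library labelled atx1 II, against 109 FPKM in WT I, 516 FPKM in WT II and 229 FPKM in WT III. HCF173 (AT1G16720), needed for synthesis of the photosystem II reaction centre protein D1, was at 55.8 FPKM in the library labelled atx1 II, against 64.9 FPKM in WT I, 133 FPKM in WT II and 62.1 FPKM in WT III. HCF173 was thus at its lowest in the library labelled atx1 II, whereas CAT2 there was within 2-fold of WT II.

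The 3 members of the next group encode enzymes that act on walls or on lignin precursors. BXL1 (AT5G49360) is a beta-xylosidase gene, of a class that trims sugar residues from wall polysaccharides. It was at 327 FPKM in the library labelled atx1 II, against 60.1 FPKM in WT I, 252 FPKM in WT II and 121 FPKM in WT III. BGLU46 (AT1G61820), a glucosidase gene whose product splits monolignol glucosides, was at 19.6 FPKM in the library labelled atx1 II, against 24.7 FPKM in WT I, 128 FPKM in WT II and 62.1 FPKM in WT III. Its neighbour of like function, BGLU45, did not peak, at 246 FPKM in the library labelled atx1 II against 7.17, 112 and 134 FPKM in WT I, II and III. PME17 (AT2G45220), a pectin methylesterase gene, was at 12.6 FPKM in the library labelled atx1 II, against 12.2 FPKM in WT I, 121 FPKM in WT II and 46.3 FPKM in WT III. BGLU46 and PME17 were thus near the WT I level in the library labelled atx1 II, and BXL1 was at its highest there.

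Of the 4 KISS ME DEADLY genes, 2 were members. Their F-box products lead type-B response regulators of cytokinin signalling, and also phenylalanine ammonia-lyase, to degradation. KMD3 (AT2G44130) was listed at 0 in the library labelled atx1 II, against 2.93 FPKM in WT I, 43.8 FPKM in WT II and 19.4 FPKM in WT III. KMD4 (AT3G59940) was at 33.9 FPKM in the library labelled atx1 II, against 25.4 FPKM in WT I, 109 FPKM in WT II and 47.1 FPKM in WT III. Both were lower in the library labelled atx1 II than in WT II. KMD1 and KMD2 differed in wild-type pattern, since KMD1 was at 114 FPKM in the library labelled atx1 II against 5.87, 132 and 119 FPKM in WT I, II and III, and KMD2 was at 37.0 FPKM against 4.67, 11.6 and 12.6 FPKM.

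Other hormone genes were at modest levels. CYP735A2 (AT1G67110), which makes trans-zeatin type cytokinins, was at 7.68 FPKM in the library labelled atx1 II, against 1.36, 5.06 and 1.01 FPKM in WT I, II and III. PILS5 (AT2G17500), an auxin carrier gene of the endoplasmic reticulum, was at 4.40 FPKM in the library labelled atx1 II, against 5.79, 13.7 and 5.49 FPKM in WT I, II and III. Among genes of secreted peptides, PSK2 (AT2G22860), a precursor of the growth peptide phytosulfokine, was at 60.4 FPKM in the library labelled atx1 II, against 6.35, 56.7 and 22.0 FPKM. The gibberellin-regulated peptide gene GASA1 (AT1G75750) was at 158 FPKM in the library labelled atx1 II, against 17.7, 61.6 and 9.51 FPKM in WT I, II and III. RALFL8 (AT1G61563), for a peptide of the RALF family, was at 7.08 FPKM in the library labelled atx1 II, against 1.12 and 4.05 FPKM in WT I and WT II, and was listed at 0 in WT III. PSK2, RALFL8 and CYP735A2 were thus within 2-fold of WT II in the library labelled atx1 II, GASA1 was higher and PILS5 lower.

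A further 6 of the named members encode transcription factors, all under 20 FPKM in WT II. RAP2.6 (AT1G43160) and Rap2.6L (AT5G13330) are AP2/ERF genes of stress and wounding, and the second is known from the healing of cut stems. RAP2.6 was at 3.6 FPKM in the library labelled atx1 II, against 0.05 FPKM in WT I, 5.89 FPKM in WT II and 0.06 FPKM in WT III. Rap2.6L was at 22.2 FPKM in the library labelled atx1 II, against 0.04 FPKM in WT I, 3.5 FPKM in WT II and 0.08 FPKM in WT III. These 2 genes were near 0 in segments I and III and well above it in both libraries from segment II. NAP (AT1G69490), a NAC regulator of leaf senescence, was at 26.4 FPKM in the library labelled atx1 II, against 0.62, 5.37 and 2.17 FPKM in WT I, II and III. The homeobox genes ZFHD1 (8.14 FPKM in the library labelled atx1 II, against 0.20, 2.87 and 0.13 FPKM) and WOX2 (5.19 FPKM, against 0.56, 2.42 and 0.51 FPKM) were likewise highest in the library labelled atx1 II and next highest in WT II. TRY (AT5G53200), a repressor of trichome formation, was at 5.55 FPKM in the library labelled atx1 II, against 7.38, 19.3 and 6.65 FPKM, and was the 1 factor of the 6 that was at least 2-fold lower there than in WT II.

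SEN1 (AT4G35770), a gene induced by darkness and senescence, was at 102 FPKM in the library labelled atx1 II, against 0.32 FPKM in WT I, 2.83 FPKM in WT II and 0.35 FPKM in WT III. Its difference of 4.75 on the log2 scale between the library labelled atx1 II and WT II was the largest of the 123 genes on the higher side. SEN1 and NAP were the 2 members among 6 measured genes of the dark and sugar starvation list. Of those 6, the library labelled atx1 II was at least 2-fold above WT II for 5 and below it for 0, where 14.1% and 8.32% of all measured genes were above and below. WT II was above WT I for 4 and above WT III for 3 of the 6, and below either for 0. Among all measured genes 9.88% were above WT I and 2.35% above WT III. By the rule, the 2 members are among the 4 and the 3, so nothing is read from these wild-type counts. Of 19 measured genes on the clock list, the library labelled atx1 II was at least 2-fold above WT II for 9 and below it for 2. The morning clock gene CCA1 was at 121 FPKM in the library labelled atx1 II, against 1.0, 2.91 and 1.62 FPKM in WT I, II and III, and LHY was at 108 FPKM against 1.53, 2.80 and 1.64 FPKM. The part of the clock in the levels of SEN1, NAP, NIA1 and other members in that library was not tested. BCAT2, for breakdown of branched-chain amino acids, was not a member but also stood higher in the library labelled atx1 II, at 135 FPKM against 13.2, 37.0 and 24.7 FPKM in WT I, II and III.

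**Figure D2:**
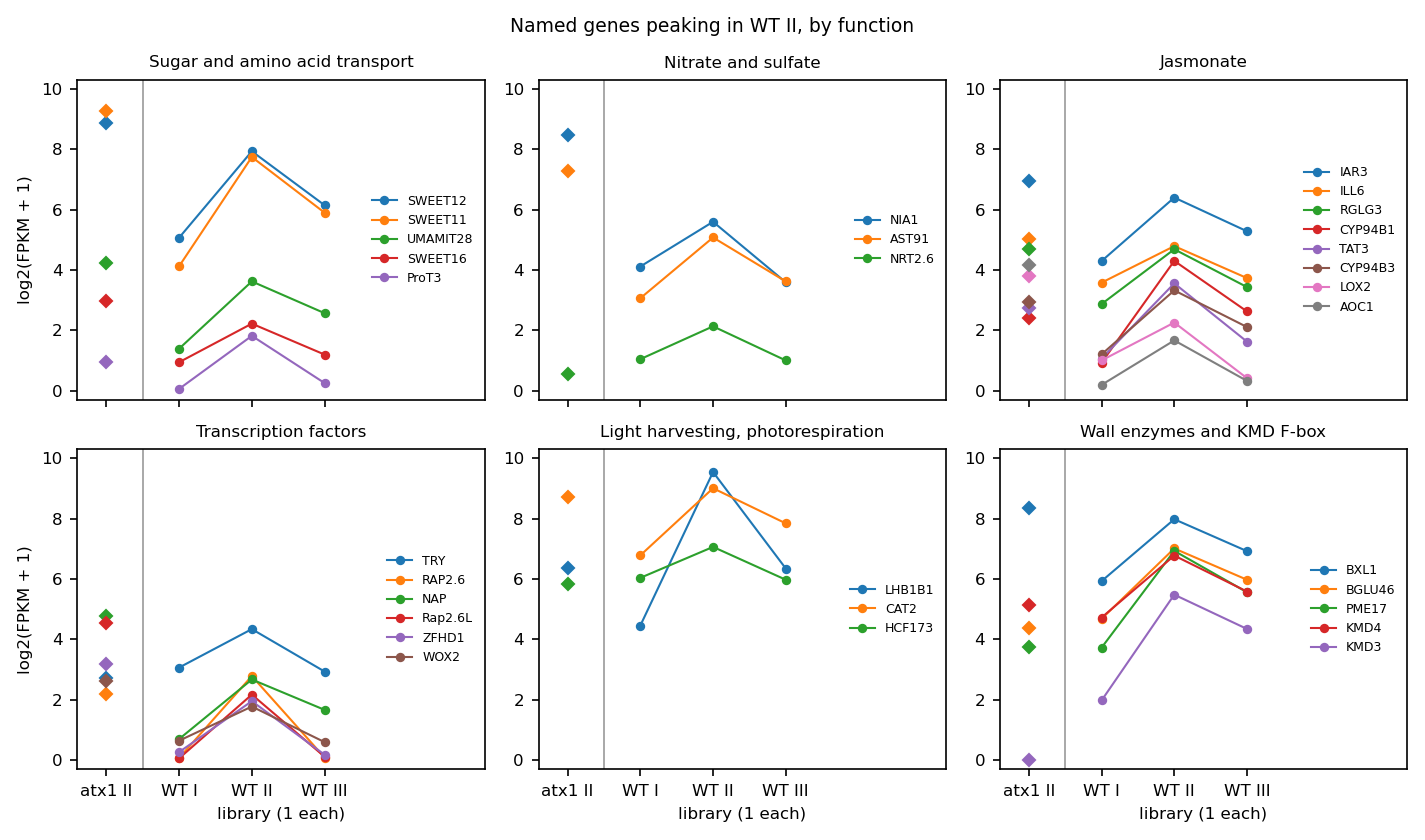
Log2(FPKM + 1) of the named genes of 6 function groups, with 1 library per position; diamonds left of the grey line are the library labelled atx1 II, and joined circles are WT I, WT II and WT III. Each wild-type line has its top at WT II by the rule, while the diamonds lie above WT II for SWEET11, NIA1 and AST91 and well below it for LHB1B1, PME17, BGLU46 and KMD3.

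The other named genes are of mixed function. Of 16 in this group the library labelled atx1 II was at least 2-fold above WT II for 2, below it for 2 and within 2-fold for 12. Among all measured genes 14.1% were above and 8.32% below, and nothing is read from these counts. The serine carboxypeptidase-like gene scpl31 (AT1G11080) was at 137 FPKM in the library labelled atx1 II, against 21.7 FPKM in WT I, 83.9 FPKM in WT II and 23.96 FPKM in WT III. ATL8 (AT1G76410), of a family of RING-type ubiquitin ligases, was at 66.9 FPKM in the library labelled atx1 II, against 29.3 FPKM in WT I, 87.3 FPKM in WT II and 42.8 FPKM in WT III. SIS (AT5G02020), annotated as salt induced and serine rich, was at 62.1 FPKM in the library labelled atx1 II, against 6.62 FPKM in WT I, 36.3 FPKM in WT II and 16.5 FPKM in WT III. Of these, scpl31 and SIS also met the peak rule in the library labelled atx1 II, and ATL8 did not. UGT76B1 (AT3G11340), which encodes a glycosyltransferase of isoleucic acid that acts in salicylate and jasmonate defence, was at 4.59 FPKM in the library labelled atx1 II, against 0.90 FPKM in WT I, 6.26 FPKM in WT II and 0.89 FPKM in WT III. The jacalin-type lectin gene PBP1 (AT3G16420) was at 10.27 FPKM in the library labelled atx1 II, against 1.62, 8.28 and 3.57 FPKM in WT I, II and III. CML30 (AT2G15680), a calmodulin-like gene, was at 4.52 FPKM in the library labelled atx1 II, against 3.26, 9.0 and 3.22 FPKM, and thus lay nearer to WT I and WT III than to WT II.

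A total of 64 of the 123 genes are known in the annotation used here by a locus identifier alone. No function is given for them, and the counts by function leave them out. In WT II they ran over 1.18 to 520 FPKM. The library labelled atx1 II was at least 2-fold above WT II for 12, below it for 20 and within 2-fold for 32. Among all measured genes 14.1% were above and 8.32% below. The WT II value in this comparison also chose the genes, so nothing is read from these counts. The most abundant were AT4G23670, at 125 FPKM in the library labelled atx1 II against 162, 520 and 228 FPKM in WT I, II and III, and AT3G11930, at 449 FPKM against 45.5, 262 and 56.6 FPKM. AT3G11930 thus kept a high level in both libraries from segment II, and AT4G23670 was below all 3 wild-type libraries in the one labelled atx1 II. AT2G20670 had a similar profile to AT3G11930, with 127 FPKM in the library labelled atx1 II against 18.4, 95.7 and 22.6 FPKM in WT I, II and III. AT4G36850 was at 333 FPKM in the library labelled atx1 II, against 1.25, 17.41 and 3.29 FPKM in WT I, II and III, and AT4G39675 was at 17.2 FPKM there, against 1.70 FPKM in WT II, and was listed at 0 in WT I and WT III. AT5G57785 was at 4.32 FPKM in the library labelled atx1 II, against 14.7, 56.7 and 11.5 FPKM. AT4G33666 was at 13.7 FPKM in the library labelled atx1 II, against 33.1, 101 and 36.7 FPKM, so that both of these lay below every wild-type library there. AT2G37750 differed between the low sides of its peak, at 12.4 FPKM in the library labelled atx1 II against 0.50, 55.5 and 27.0 FPKM. AT4G32480 was at 99.6 FPKM in the library labelled atx1 II, against 63.9, 132 and 48.5 FPKM, and AT5G42825 was at 37.2 FPKM against 0.29, 17.61 and 4.41 FPKM. CP5 (AT1G64720), for which only a name is given, had the second highest WT II level, with 739 FPKM in the library labelled atx1 II against 323, 692 and 327 FPKM in WT I, II and III.

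Some members lie next to each other in the genome. A total of 6 pairs of directly neighbouring protein-coding genes were both members, 1 on chromosome 1, 1 on chromosome 3 and 4 on chromosome 4. The densest stretch was AT4G15660, AT4G15670, AT4G15690 and AT4G15700. These 4 genes were at 16.1, 8.79, 20.3 and 29.7 FPKM in the library labelled atx1 II, against 4.84, 4.56, 5.19 and 7.64 FPKM in WT I, 15.2, 10.5, 15.5 and 23.2 FPKM in WT II and 4.22, 3.79, 2.74 and 6.69 FPKM in WT III. The gene between them, AT4G15680, missed the rule by a small margin, with a smaller difference of 0.977 (3.13, 7.13 and 0.57 FPKM in WT I, II and III). The other pairs were AT1G49310 with USPL1, AT4G30450 with AT4G30460, AT4G16000 with AT4G16008, and FAMT with AT3G44870. All 4 genes of the stretch were within 2-fold of WT II in the library labelled atx1 II. Since the sources used here do not say how reads were divided between similar genes, neighbours are not counted as independent members.

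For a few members, close copies or low levels limit what the value shows. LpxC3 (AT1G25054), 1 of several near-identical genes of a lipid A-like pathway, was at 6.82 FPKM in the library labelled atx1 II and 11.5 FPKM in WT II, and was listed at 0 in WT I and WT III. The 4 listed LpxC genes together were at 93.8 FPKM in the library labelled atx1 II, against 60.5, 115 and 70.4 FPKM in WT I, II and III, so the family sum differed by less than the single gene. The mitochondrial gene NAD3 was at 5.37 FPKM in WT II and listed at 0 in the other 3 libraries, and AT5G50560 was at 10.8 FPKM in WT II and 4.65 FPKM in WT III and listed at 0 in the library labelled atx1 II and in WT I.

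BCP1 (AT1G24520), named for a pollen protein of Brassica, the polygalacturonase gene PGA4 (AT1G02790) and sks13 (AT3G13400) carry names or family ties to pollen. BCP1 was at 2.96 FPKM in the library labelled atx1 II, against 0.52 FPKM in WT I, 9.06 FPKM in WT II and 1.60 FPKM in WT III. PGA4 was at 4.82 FPKM in the library labelled atx1 II, against 0.54, 2.29 and 0.07 FPKM in WT I, II and III. The level of sks13 was 6.79 FPKM in the library labelled atx1 II, against 0.52, 2.04 and 0.09 FPKM in WT I, II and III. BCP1 was thus highest in WT II and the other 2 in the library labelled atx1 II. The 5 pollen markers chosen after these values were seen (VGD1, VGDH1, PPME1, sks12 and sks14) summed to 9.59 FPKM in the library labelled atx1 II, against 1.2 FPKM in WT I, 3.94 FPKM in WT II and 0.66 FPKM in WT III. Each of the 5 was highest in the library labelled atx1 II and second highest in WT II, and VGD1, sks12 and sks14 were listed at 0 in WT III. The floral identity markers AP3, PI, AG and SEP3 summed to 0.49 FPKM in the library labelled atx1 II, against 2.93, 0.37 and 0.31 FPKM in WT I, II and III, with AP3 listed at 0 in the library labelled atx1 II and in WT II and WT III. The part of pollen transcripts in the levels of these low members was not tested.

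The library labelled atx1 II came from the same segment as WT II. In it 35 of the 123 genes (28.5%) were lower than in WT II by at least 2-fold, against 8.32% of all measured genes, and 25 (20.3%) were higher, against 14.1% of all measured genes. The remaining 63 lay within 2-fold. The median difference was -0.09 on the log2 scale for the 123 genes, with quartiles of -1.18 and 0.80, and 0.28 for all measured genes, with quartiles of -0.25 and 0.72. The WT II value that enters this difference is the one that chose the genes, so these counts are a description and nothing is read from them. Counted relative to the median of all measured genes, 46 were lower and 19 higher. After scaling by the median of ratios, which moved the median of all measured genes to 0.03, 44 of the 123 were lower and 21 higher. TAT3, at -1.08 on the log2 scale, CML30, at -1.11, and ProT3, at -1.06, were among those that crossed to the lower side under that scaling, and none of the 4 genes that fell short of 2-fold higher (AT4G01700, AT5G42825, AT1G02610 and AT4G16008) belongs to a function group.

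**Figure D3:**
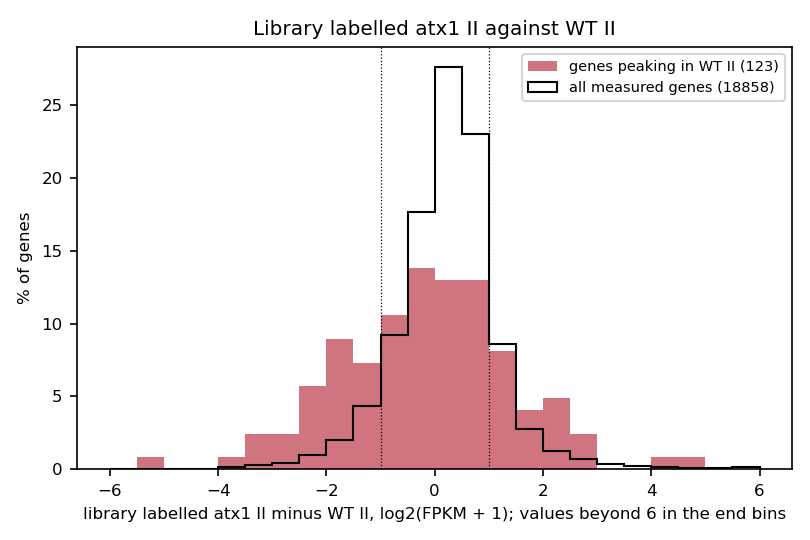
Distribution of the difference between the library labelled atx1 II and WT II in log2(FPKM + 1), as the percentage of genes in bins of 0.5, for the 123 genes (filled) and all 18858 measured genes (line); dotted lines mark 2-fold. Of the 123 genes 28.5% lie beyond the lower line and 20.3% beyond the upper one, against 8.32% and 14.1% of all measured genes. The WT II value in this difference also chose the genes, so nothing is read from these shares.

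On the lower side the largest differences, among genes at 5 FPKM or more in the higher of the 2 libraries, were those of KMD3, AT5G50560, AT5G57785, LHB1B1 and PME17. AT5G57785 was lower by 3.44 on the log2 scale, LHB1B1 by 3.19 and PME17 by 3.17, and KMD3 and AT5G50560 were listed at 0 in the library labelled atx1 II. On the higher side they were those of SEN1, AT4G36850, NIA1, AT4G39675 and AOC1, with differences of 4.75, 4.18, 2.89, 2.75 and 2.51. The function groups hold named genes only and were chosen after the values were seen. The shares of all measured genes were 8.32% lower and 14.1% higher. By function, both KISS ME DEADLY genes, 2 of 3 wall and monolignol enzymes and 2 of 3 photosynthesis genes were lower. NIA1 and AST91 of the 3 nitrate and sulfate genes and NAP, Rap2.6L and ZFHD1 of the 6 transcription factors were higher. The jasmonate genes were split, with LOX2 and AOC1 higher, CYP94B1 lower and 5 within 2-fold.

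For 15 genes the library labelled atx1 II lay below both WT I and WT III. Among them were BGLU46, HCF173, TRY, PILS5, NRT2.6 and PDX1L4 (AT2G38210), annotated as a putative PDX1-like protein gene, which was at 4.6 FPKM in the library labelled atx1 II against 5.41, 13.2 and 5.97 FPKM in WT I, II and III. At the other end, 57 of the 123 genes had their highest level of all 4 libraries in the one labelled atx1 II, and 66 had it in WT II. The rule leaves only these 2 libraries as possible highest ones. The matching shares of all measured genes were not counted, so nothing is read from the counts of 15, 57 and 66. PP2-A13 (AT3G61060), of the phloem protein PP2 family, was 1 of the 57, with 281 FPKM in the library labelled atx1 II against 26.4, 61.3 and 28.9 FPKM in WT I, II and III.

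Put in the place of WT II, the library labelled atx1 II met both conditions of the rule for 68 of the 123 genes (55.3%), against 7.4% of all measured genes. The 2 comparisons share WT I and WT III, whose low values also helped to choose the genes, so this count is a description. Set against WT I alone it was at least 2-fold higher for 80 of the 123 genes, against 19.8% of all measured genes, and against WT III alone for 72, against 9.61%. Of the named groups, 6 of 8 jasmonate genes, 5 of 6 transcription factors, 4 of 5 sugar and amino acid transporter genes and all 3 genes of secreted peptides were among the 68, as were 0 of 3 photosynthesis genes and 0 of 2 KISS ME DEADLY genes. Genes at least 2-fold above WT I in WT II and then within 2-fold of WT II in WT III (1643 genes) gave side-by-side values of 23.6% lower and 18.6% higher in the library labelled atx1 II than in WT II, with a median of 0.01, and the difference from the 123 genes was not tested.

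**Figure D4:**
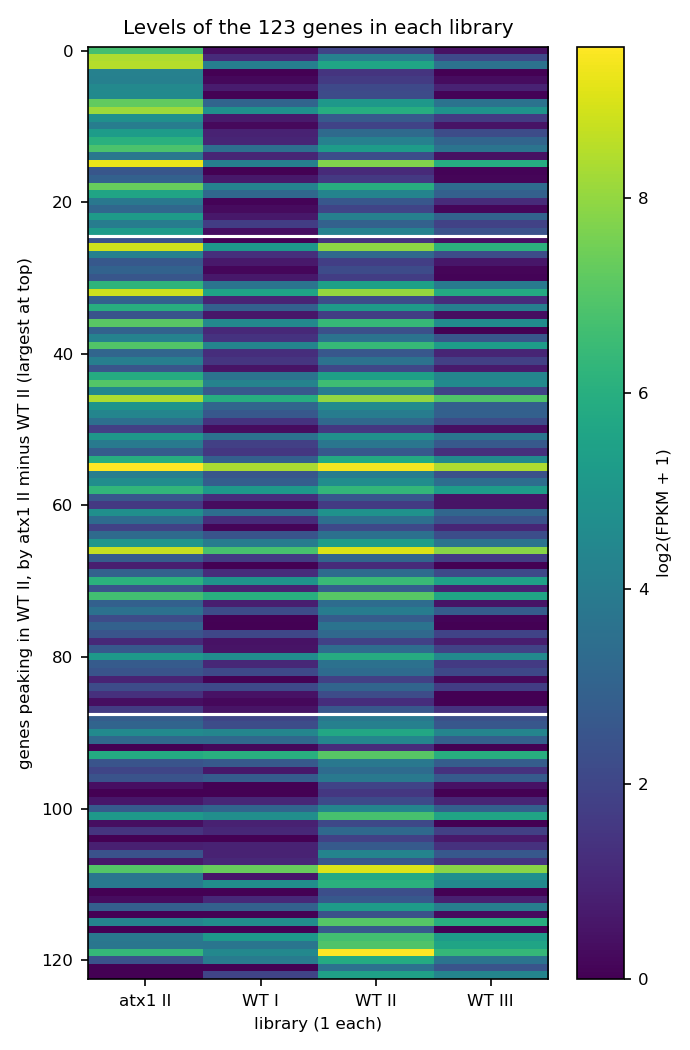
Levels of the 123 genes (rows, 1 gene each) in the 4 libraries (columns) as log2(FPKM + 1), sorted by the difference between the library labelled atx1 II and WT II. White lines part the 25 genes at least 2-fold higher in the library labelled atx1 II (top), the 63 within 2-fold and the 35 lower (bottom), and WT II is brighter than WT I and WT III in every row by the rule.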

How the data were processed

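RNA-seq of 4 libraries was used, 1 per group, out of 10 samples, and the chromatin samples were not analysed here. The authors deposited FPKM per gene, rounded to 2 decimals, per the file headers. Trimmomatic, HISAT, Bowtie2 and RSEM and the build TAIR10 are named in the submitters' processing notes, without versions. The 4 files list the same 23615 genes and were joined on the gene identifier. Differences are of log2(FPKM + 1) on the values as deposited, a scale on which folds of weakly expressed genes come out too small. The rule's filter of 1 FPKM could remove no gene that met its 2 other conditions, since these already require 1 FPKM in WT II. Of the 123 genes, 121 matched the TAIR10.1 gene table, which supplied synonyms and neighbours; the 2 mitochondrial genes did not. Promoter motifs were not searched, since no sequence table was used here.

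The genes, the lists and the comparisons were chosen with earlier results of these data known. Function groups, the lists for jasmonate turnover, JAZ, KISS ME DEADLY, nitrate, monolignol glucosidase, pollen and LpxC genes, and some named members were chosen after the values were seen. The naming rule took the 10 highest genes in WT II, the 10 largest peaks at 10 FPKM or more in WT II, the 5 largest differences in each direction between the library labelled atx1 II and WT II at 5 FPKM or more in the higher one, members on a list, and 3 genes on each side of the threshold. Depth was estimated from genes 250 to 900 bp long with values above 0 and below 1 FPKM; 70.3% to 71.1% of these lay within 0.15 of a whole fragment at the fitted depth, where evenly spread values would give 30%, and the fit used the same values. The lowest genes rest on few fragments. The code of the rule was checked on simulated data with large peaks planted in well expressed genes. That check says nothing of smaller peaks or of genes at low levels. Python 3 with pandas and numpy was used.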

Additional observations from a re-analysis of the deposited data

How the results depend on the processing

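No paired analysis was possible because each group holds 1 library. How many genes the rule took depended on low values, scaling and the size asked for. All 123 genes were among those taken at the smaller pseudocounts, under median-of-ratios scaling and at the lower threshold. Those settings could only add genes, so this says nothing of how stable the choice is. Leaving out organelle genes could also drop genes, and took 118, of which 117 were among the 123. With a pseudocount of 0.1 in place of 1 the rule took 233 genes, of which 63 were lower and 80 higher in the library labelled atx1 II than in WT II, and 148 also met the rule there; with 0.5, 39 of the genes taken were higher. Median-of-ratios scaling took 206 genes, 71 of them lower. A threshold of 1.5 on the log2 scale took 33 genes (8 lower, 5 higher, 19 meeting the rule in the library labelled atx1 II), and a threshold of 1.5-fold took 449 (194, 119 and 214 in the same order). Without genes under 5 FPKM in WT II, an alternative chosen after seeing the data, 14 were higher. Compared with WT III rather than WT II, 8 of the 123 genes were lower and 72 higher in the library labelled atx1 II, and set against WT I, 3 were lower and 80 higher. The cause of these shifts was not tested. Leaving out organelle genes, a filter at 5 FPKM and no filter kept each of these counts within 1.5 times, as did leaving out mitochondrial and neighbouring genes, chosen after seeing the data. The promoter motif count was not run. Without replicates, no difference can be set against the spread between plants.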
